A study of Homo sapiens with 60 samples.

Results

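The water extract of Cimicifugae Rhizoma, a dried rhizome of Cimicifuga plants used in East Asian herbal medicine, was tested at a high and a low dose in SW1783 cells. The comparison rests on 6 of the 60 libraries of the series, chosen by their sample titles: 3 libraries at the high dose of 500 µg/mL and 3 at the low dose of 20 µg/mL. SW1783 is an established human astrocytoma line, so a single cell line stands for the cell type, and it was grown in a serum-containing medium. All cells were harvested 24 h after treatment, and the low-dose group received the same extract, so it is a low exposure and not an untreated control. The medium dose of 100 µg/mL, with 3 libraries, and the water extract of Citri Unshius Pericarpium (mandarin peel) at 500 and 20 µg/mL, with 3 libraries each, served for comparison. The sample codes of both extracts fall in the same set, whereas the 3 vehicle libraries fall in another (DMSO, at 0.1% per the sample labels and 2% per the series design). Vehicle levels are therefore given as a background only, because code set and treatment cannot be told apart against them.

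RNA sequencing gave 21100150 to 24881518 counts in each of the 6 libraries. Levels are given as CPM, counts scaled by library size to a common total, for each library in the order of replicates 1, 2 and 3. The third high-dose library stood apart: its chi-square statistic against the other 2 high-dose libraries was 19.8 and 21.9 per degree of freedom, against 2.09 between those 2 and 2.56 to 3.70 within the low dose. Mitochondrially encoded genes took 7.70% of its counts, against 5.32% to 5.44% in the other 2 high-dose libraries and 5.12% to 5.95% at the low dose. For this reason list counts that changed without it, and called genes whose call was lost or whose difference moved by over 1.5 times, are also given without the third. The labels do not say that replicates came from separate cultures, so the spread between libraries behind the p-values may be technical. That spread was estimated jointly over the 57 libraries of 19 groups in the fit, not over these 6 alone.

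The line carried only part of the astrocyte pattern. Of 12 astrocyte markers, 5 did not pass the filter on low counts: GFAP, S100B, AQP4, ALDH1L1 and FABP7. The intermediate filament protein VIM, at 3857, 4046 and 4005 CPM at the low dose, the hyaluronan receptor CD44, at 2687, 2669 and 2702, the gap junction protein GJA1, at 249, 242 and 254, and the glial transcription factor SOX9, at 73.6, 69.6 and 71.2, were present. Of the 7 markers tested, 3 were called lower at the high dose and none higher, against 13.5% of all genes, by the test described below. They were VIM, SOX9 and GJA1 (log2 differences -0.18, -0.18 and -0.15), and all 3 calls were lost with only the 6 libraries in the fit. CD44, SLC1A3, SLC1A2 and GLUL were not called.

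Several pathways recur in the results. The aryl hydrocarbon receptor (AHR) is a ligand-activated transcription factor that binds planar compounds, many of plant origin, and switches on detoxifying enzymes and its own repressors. NRF2 (NFE2L2) is held down by KEAP1 until electrophiles or oxidants release it, after which it induces genes of glutathione, iron and quinone handling. Bone morphogenetic proteins (BMPs) act through SMAD1, SMAD5 and SMAD9 and induce the ID genes, which encode inhibitors of basic helix-loop-helix transcription factors.

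The high dose changed the expression of many genes by small amounts. Of 17190 genes tested, 4317 (25.1%) were called between the high and the low dose at a Benjamini-Hochberg adjusted p under 0.05 with edgeR's quasi-likelihood test, the test used throughout: 2004 rose (11.7%) and 2313 fell (13.5%). The median log2 difference was 0.27 among the rises and -0.21 among the falls, and only 84 rises and 56 falls reached 2-fold. The median over all genes was 0.003. Without the third high-dose library 3120 genes of 17436 were called (17.9%; 1436 up, 8.24%, and 1684 down, 9.66%), and 2728 of the 4317 were called again with the same sign. With only the 6 libraries in the fit, 1567 genes of 15770 were called. All 3 high-dose libraries lay above all 3 low-dose libraries in 16% of the tested genes and below them in 16.9%, which is the background for any statement on groups that did not overlap. For genes named by the size of their change, a call and separate groups were conditions of the choice and are no further result. In bulk RNA, a change in the RNA per cell and a change in the mix of cells cannot be told apart.

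Genes of the AHR pathway rose. Of 8 members tested, 6 were higher at the high dose and none lower (5 without the third library), against 11.7% of all genes called higher (8.24% without the third library), and the median log2 difference of the list was 0.76 against 0.003 for all genes. Promoters of 3 of these genes are shown because each holds the core of the xenobiotic response element, the letters GCGTG (or CACGC on the other strand) to which AHR and its partner ARNT bind. Each run covers 250 bases before to 50 bases after the RefSeq start on GRCh38.p14, is written 5′ to 3′ in the direction of the gene, and has the matches in capitals.
TIPARP: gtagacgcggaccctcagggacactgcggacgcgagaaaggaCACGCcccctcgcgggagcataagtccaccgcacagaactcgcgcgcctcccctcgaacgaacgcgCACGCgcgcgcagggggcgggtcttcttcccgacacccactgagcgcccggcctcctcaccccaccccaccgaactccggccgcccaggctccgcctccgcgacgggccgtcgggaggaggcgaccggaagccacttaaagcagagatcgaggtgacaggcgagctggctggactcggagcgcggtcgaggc
CYP1A1: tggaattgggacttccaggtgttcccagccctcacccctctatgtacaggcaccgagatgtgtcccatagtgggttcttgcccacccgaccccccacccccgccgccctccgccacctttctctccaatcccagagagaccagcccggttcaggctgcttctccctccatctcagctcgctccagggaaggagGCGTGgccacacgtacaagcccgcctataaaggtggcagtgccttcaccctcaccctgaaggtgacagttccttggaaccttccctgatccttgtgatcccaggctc
AHRR: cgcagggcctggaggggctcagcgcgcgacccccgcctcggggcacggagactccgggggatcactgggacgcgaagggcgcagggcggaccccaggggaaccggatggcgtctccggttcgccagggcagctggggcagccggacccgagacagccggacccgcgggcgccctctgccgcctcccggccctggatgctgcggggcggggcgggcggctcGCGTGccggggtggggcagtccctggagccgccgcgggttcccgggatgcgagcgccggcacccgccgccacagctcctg
The first lies at chr3:156674340-156674639 on the plus strand, the second at chr15:74725479-74725778 on the minus strand and the third at chr5:321464-321763 on the plus strand. TIPARP holds 2 matches, and CYP1A1 and AHRR hold 1 each. The motif is common: 36.5% of the 35116 promoters of this length hold at least 1 match. The promoter of UGT1A6, a member of the list that was not called, holds 1 as well. Those of ID1, ID2 and ID3, which were lower at the high dose, hold 2 each.

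CYP1B1 (chr2:38066973-38109902, GRCh38), a cytochrome P450 that oxidises polycyclic hydrocarbons and estrogens, stood at 193, 186 and 198 CPM at the low dose, 253, 254 and 244 at the medium dose and 328, 337 and 322 at the high dose. The groups did not overlap and each step in dose was upward, with a log2 difference of 0.78 ± 0.034 (SE) between high and low (adjusted p = 1.21e-23) and 0.38 ± 0.034 between medium and low (adjusted p = 1.01e-10). TIPARP, a mono-ADP-ribosyltransferase that represses AHR, went from 43.2, 43 and 47 CPM through 58.4, 56.2 and 57.5 to 74.9, 73.5 and 73. Its high-dose libraries lay above all others, with a log2 difference of 0.73 ± 0.044 (adjusted p = 1.89e-18). The AHR repressor AHRR went from 47.8, 49.6 and 49.1 CPM to 64.3, 57.8 and 68.2, a log2 difference of 0.38 ± 0.051 (adjusted p = 1.11e-07). The low- and high-dose groups of all 3 genes were separate, and CYP1B1 and TIPARP were also called at the medium dose under each omission of a library.

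The classical inducible gene CYP1A1, a P450 of the same family, was counted at low levels, at 0.786, 0.786 and 0.931 CPM at the low and 1.76, 2.37 and 2.95 at the high dose (log2 difference 1.49 ± 0.23, adjusted p = 2.59e-06). ALDH3A1, an aldehyde dehydrogenase, moved from 0.508, 0.524 and 0.838 CPM to 2.87, 2.5 and 2.2 (2.01 ± 0.29, adjusted p = 4.37e-07). The receptor AHR itself differed by 0.10 ± 0.036 (adjusted p = 0.0237), a call that was lost without the first or the third high-dose or the second low-dose library (adjusted p = 0.0885, 0.101 and 0.252), and its partner ARNT was not called (0.064 ± 0.05, adjusted p = 0.378).

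**Figure D1:**
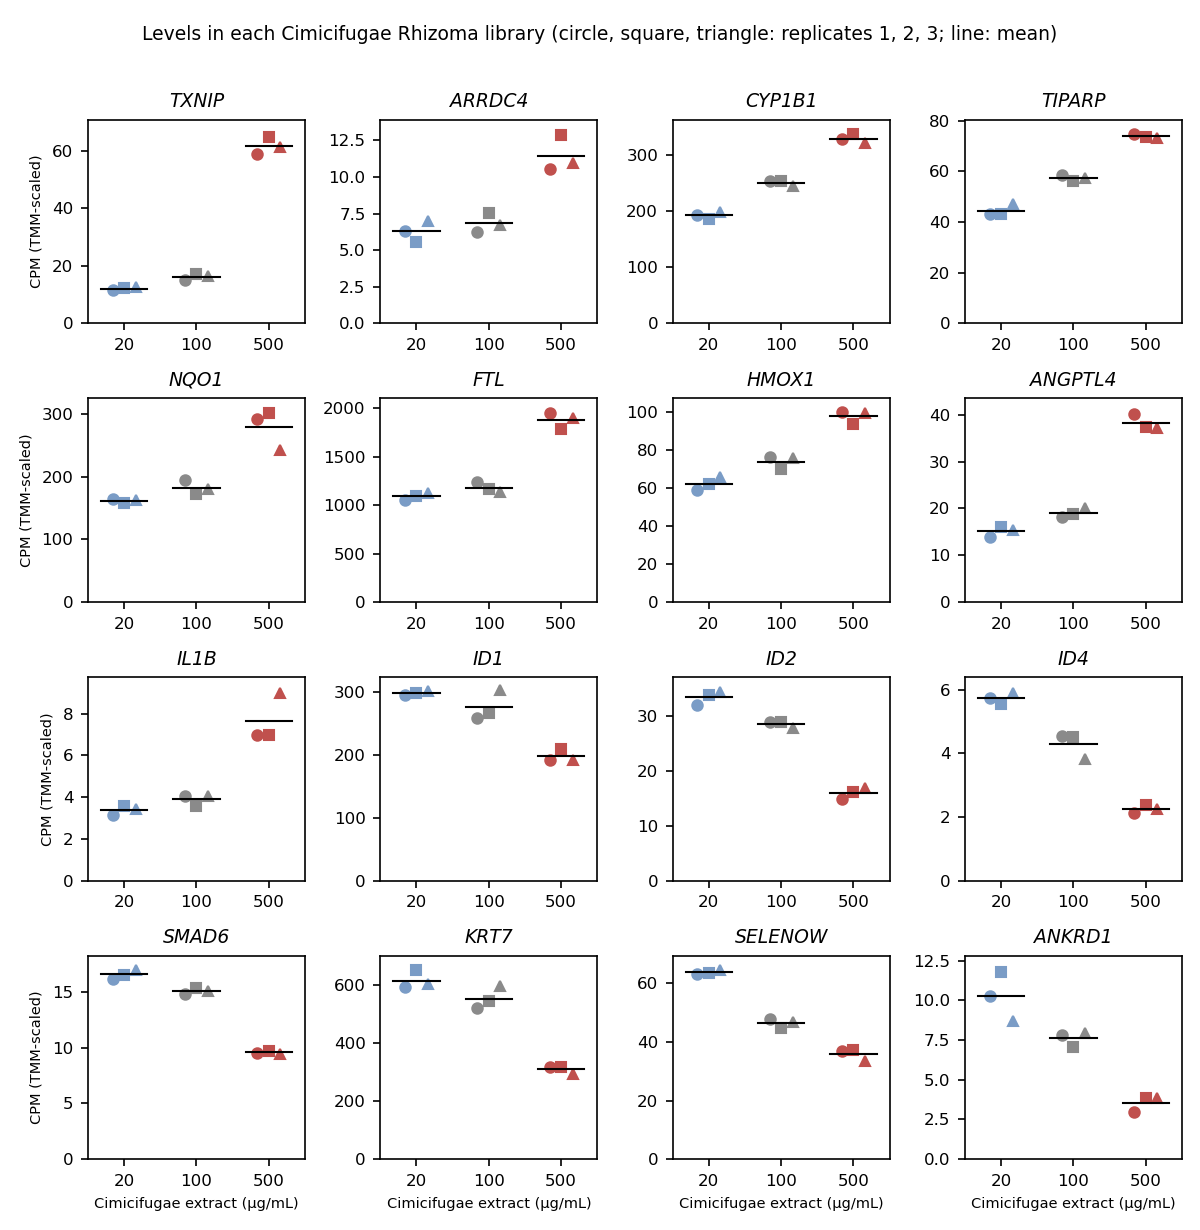
TMM-scaled CPM (y axis, from 0) of 16 genes in the 9 Cimicifugae Rhizoma libraries, by dose (x axis, µg/mL). Circles, squares and triangles are replicates 1, 2 and 3 and the line is the group mean; in all 16 genes the 500 µg/mL libraries lie apart from the 20 µg/mL libraries, with TXNIP at 58.8 to 64.7 against 11.7 to 12.5 CPM.

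The largest rise among the genes that qualified for naming was that of TXNIP (chr1:145992435-145996600, GRCh38), which encodes a binding partner of thioredoxin that restrains glucose uptake. It stood at 11.7, 12.2 and 12.5 CPM at the low, 15.1, 17.2 and 16.5 at the medium and 58.8, 64.7 and 61.2 at the high dose, with 8.38 to 9.31 in the vehicle. The groups did not overlap, and the log2 difference between high and low was 2.34 ± 0.073 (adjusted p = 1.82e-29; 2.35 without the third library). Its paralog ARRDC4, an arrestin-domain protein that also limits glucose uptake, went from 6.29, 5.59 and 7.03 to 10.6, 12.9 and 10.9 CPM (0.86 ± 0.091, adjusted p = 3.05e-10). Both are textbook targets of the glucose-sensing factor MondoA (MLXIP) and its partner MLX, which bind pairs of E-box-like half-sites. The promoters are shown with the same conventions, TXNIP with the paired element (the half-site CACGNG repeated after 5 bases) and ARRDC4 with the plain E-box CACGTG in capitals, each searched on both strands. The paired spelling holds a plain E-box wherever an N of a half-site is a T.
TXNIP: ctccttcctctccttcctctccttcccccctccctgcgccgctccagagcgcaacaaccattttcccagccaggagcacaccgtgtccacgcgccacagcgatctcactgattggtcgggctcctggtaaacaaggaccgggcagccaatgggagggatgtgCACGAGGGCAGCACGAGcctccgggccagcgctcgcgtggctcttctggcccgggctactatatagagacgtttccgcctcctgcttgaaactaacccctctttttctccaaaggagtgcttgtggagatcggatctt
ARRDC4: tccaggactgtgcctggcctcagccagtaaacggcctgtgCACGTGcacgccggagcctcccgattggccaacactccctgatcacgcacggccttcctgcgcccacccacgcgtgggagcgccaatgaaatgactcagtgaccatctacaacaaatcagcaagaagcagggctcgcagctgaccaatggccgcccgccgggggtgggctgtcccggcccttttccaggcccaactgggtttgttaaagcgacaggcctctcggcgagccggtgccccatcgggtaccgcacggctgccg
The TXNIP window is chr1:145996530-145996829 on the minus strand and holds 1 match that begins 88 bases before the start. Only 20 of 35116 promoters (0.057%) hold the paired element, while 7.26% hold the plain E-box. The ARRDC4 window, chr15:97960453-97960752 on the plus strand, holds 1 plain E-box and no paired element of this spelling. Of the 9 members of the list, 3 rose and 1 fell (2 and 1 without the third library), against 11.7% and 13.5% of all genes, the fall being in the glycolytic regulator PFKFB3 (-0.17, adjusted p = 0.000476). MLXIP differed by 0.17 ± 0.047 (adjusted p = 0.0066, and 0.12 without the third library), MLX by 0.046 ± 0.039 (adjusted p = 0.426) and the related ARRDC3 by 0.061 ± 0.044 (adjusted p = 0.335).

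NRF2 target genes were mostly higher at the high dose in iron and heme handling, glutathione metabolism, detoxification and NADPH supply. In iron and heme handling, 6 of 7 genes rose and none fell (7 of 7 without the third library), with a median log2 difference of 0.49. The share of all genes called higher, against which this and the following counts of rises stand, was 11.7% (8.24% without the third library). The ferritin light chain FTL, which stores iron with the heavy chain, went from 1053, 1093 and 1130 CPM to 1956, 1783 and 1902. The ferritin heavy chain FTH1 went from 1199, 1163 and 1226 to 1647, 1754 and 1633, and the heme-degrading enzyme HMOX1 from 58.8, 62.2 and 65.6 to 99.8, 93.7 and 99.4. In all 3 genes the high-dose libraries lay above the low-dose libraries. Their log2 differences were 0.78 ± 0.052, 0.49 ± 0.058 and 0.65 ± 0.045 (adjusted p = 1.04e-16, 5.34e-09 and 4.75e-16). The heme transporter SLC48A1 went from 22.8, 22 and 26.2 to 38.6, 38.8 and 41 CPM (0.74 ± 0.059, adjusted p = 4.53e-14), and ferrochelatase, FECH, which inserts iron into heme, rose by 0.35. Of these genes HMOX1 was already called at the medium dose, at 76.1, 69.8 and 75.5 CPM (0.25 ± 0.046, adjusted p = 0.00587, a call lost when any 1 of 3 libraries was left out).

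In glutathione metabolism 7 of 10 genes rose and none fell (7 and 1 without the third library), against 11.7% of all genes called higher, with a median of 0.34. The cystine importer SLC7A11 went from 139, 127 and 135 CPM to 218, 233 and 189.5 (0.67 ± 0.052, adjusted p = 2.29e-14). Both subunits of glutamate-cysteine ligase, which makes the first step of glutathione synthesis, rose, GCLC by 0.34 ± 0.047 and GCLM by 0.36 ± 0.044 (adjusted p = 3.36e-07 and 1.03e-08). The glutathione conjugate exporter ABCC3 rose by 0.45 ± 0.054 (adjusted p = 7.58e-09), while its relative ABCC1 was not called with all libraries (-0.077 ± 0.038, adjusted p = 0.133) and was called lower without the third (-0.12).

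Of 13 reductases and detoxifying enzymes, 12 rose and none fell (10 without the third library), against 11.7% of all genes (8.24% without it), with a median of 0.41. The quinone reductase NQO1 went from 164, 158 and 163 to 293, 303 and 244 CPM, with the third high-dose library the lowest of the high group but above every low-dose library. Its log2 difference was 0.79 ± 0.051 (adjusted p = 4.59e-17; 0.88 without that library). The aldo-keto reductase AKR1C1 went from 29.8, 28 and 28.8 to 57, 50.8 and 41.4 CPM (0.79 ± 0.084, adjusted p = 4.55e-10), with AKR1C2 at 0.58 ± 0.093 and AKR1C3 at 0.41 ± 0.12 (adjusted p = 3.53e-06 and 0.00802). The AKR1C3 groups overlapped, and its call was lost without the first or the second high-dose library (0.27 and 0.30, adjusted p = 0.124 and 0.0746), while without the third it was 0.63. These 3 paralogs are near-identical in sequence, so the split of reads among them is uncertain. PIR, an iron-binding redox protein, rose by 0.51 ± 0.057, OSGIN1, an oxidative stress-induced growth inhibitor, by 0.48 ± 0.076 and the epoxide hydrolase EPHX1 by 0.35 ± 0.055 (adjusted p = 1.3e-09, 2.81e-06 and 2.85e-06).

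Of the 6 enzymes that supply NADPH, 5 rose by small amounts with or without the third library (median 0.21), against 11.7% of all genes (8.24% without it), among them the pentose phosphate enzymes PGD, by 0.34 ± 0.043, and TKT, by 0.30 ± 0.04 (adjusted p = 2.67e-08 and 7.52e-08). In the thioredoxin system 2 of 7 rose and 1 fell (2 and none without the third high-dose or the first low-dose library, 2 and 2 without the second high-dose library), against 11.7% and 13.5% of all genes. Thioredoxin reductase, TXNRD1, went from 297, 297 and 299 to 419, 423 and 341 CPM (0.41 ± 0.048, adjusted p = 4.25e-09) and sulfiredoxin, SRXN1, rose by 0.28 ± 0.036 (adjusted p = 2.73e-08). The fall, in the peroxiredoxin PRDX6 (-0.14 ± 0.045, adjusted p = 0.017), was not called without the third high-dose or the first low-dose library (-0.061 and -0.11, adjusted p = 0.352 and 0.135). In thioredoxin, TXN, the third high-dose library stood alone: the low-dose libraries had 207, 202 and 198 CPM and the high-dose libraries 208, 219 and 158. The transcript of the factor itself, NFE2L2, was not called (0.075 ± 0.042, adjusted p = 0.198), nor was that of its inhibitor KEAP1 (-0.01 ± 0.055, adjusted p = 0.923). Of 9 regulators of the pathway 3 rose and 1 fell (2 and none without the third high-dose or the first low-dose library, 3 and none without the first high-dose library), against 11.7% and 13.5% of all genes, with the small MAF partner MAFG at 0.24 ± 0.048 and the adaptor SQSTM1 at 0.25 ± 0.036 (adjusted p = 0.000114 and 8.23e-07).

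**Figure D2:**
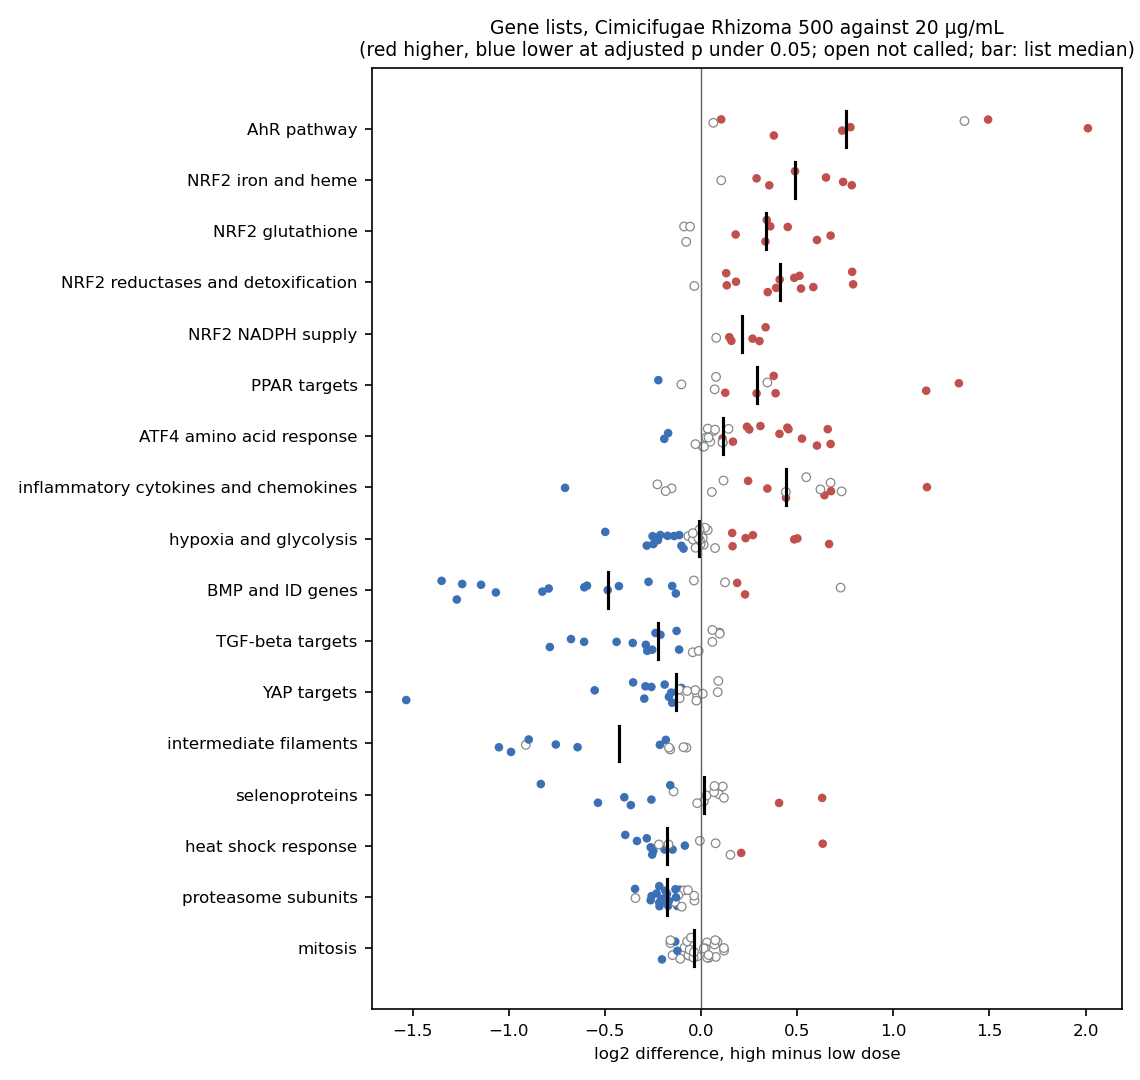
Log2 difference between the high and the low dose (x axis) of every tested member of 17 gene lists (rows), 1 point a gene. Red points were called higher, blue points lower, open points were not called, and the black bar is the list's median, which is 0.76 for the AhR pathway and -0.49 for BMP and ID genes.

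ANGPTL4 (chr19:8363289-8374373, GRCh38), a secreted inhibitor of lipoprotein lipase, was among the largest rises. It stood at 13.9, 16.1 and 15.3 CPM at the low, 18.2, 18.9 and 20.1 at the medium and 40.1, 37.3 and 37.3 at the high dose. All high-dose libraries lay above all others, and the log2 differences were 1.34 ± 0.064 between high and low and 0.34 ± 0.069 between medium and low (adjusted p = 3.43e-22 and 0.0172). It belongs to the targets of the lipid-sensing PPAR receptors, of which 6 of 11 rose and 1 fell (5 and 1 without the third library, 6 and 2 without the first), against 11.7% and 13.5% of all genes (median 0.29). The mitochondrial fatty acid carrier enzyme CPT1A rose by 0.29 ± 0.048, the lipid droplet coat protein PLIN2 by 0.38 ± 0.038 and the receptor PPARA by 0.39 ± 0.05 (adjusted p = 7.93e-06, 5.41e-11 and 4.99e-08). The kinase PDK4, which shuts pyruvate out of the citric acid cycle, rose from 1.71, 1.7 and 1.3 to 3.02, 3.64 and 4.01 CPM, close to detection. The fall was in the receptor PPARG (-0.22, adjusted p = 0.00593).

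Genes of the amino acid response that ATF4 drives rose in part: 12 of 26 rose and 2 fell (14 and 1 without the third library, 10 and 1 without the first or the second, 12 and 1 without the second low-dose library), against 11.7% and 13.5% of all genes, with a median of 0.11. Asparagine synthetase, ASNS, went from 49.4, 51.1 and 50.6 to 69.2, 72.3 and 65.7 CPM, and the pseudokinase TRIB3 from 18, 18.7 and 18.7 to 27.5, 25.7 and 26.5. Both groups were separate, with log2 differences of 0.46 ± 0.037 and 0.53 ± 0.062 (adjusted p = 1.03e-13 and 4.86e-09). ATF4 itself was not called (0.064 ± 0.041, adjusted p = 0.272).

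Of 17 cytokines and chemokines tested, 6 rose and 1 fell, with or without the third library, against 11.7% and 13.5% of all genes (median log2 difference 0.44). Interleukin 1 beta, IL1B, went from 3.14, 3.58 and 3.44 to 6.99, 6.97 and 9 CPM (1.18 ± 0.12, adjusted p = 7.35e-11), and LIF, a cytokine of the interleukin 6 family, from 19.5, 17.1 and 16.8 to 23, 24.6 and 25 (0.44 ± 0.069, adjusted p = 2.06e-06). The high-dose libraries of both lay above the low-dose libraries. The fall was in TNFSF15, a ligand of the TNF family, from 11.7, 10.9 and 10.9 to 6.65, 6.75 and 7.16 CPM (-0.71 ± 0.087, adjusted p = 1.2e-08). The protease inhibitors SERPINB3 and SERPINB4 went from 7.49, 5.19 and 6.1 to 14.6, 14.5 and 14.7 CPM and from 2.4, 1.61 and 2.61 to 5.66, 6.13 and 5.23. They are close paralogs, so their separate levels are uncertain. Both rose by more than 2-fold (1.22 ± 0.11 and 1.36 ± 0.18, adjusted p = 1.33e-12 and 5.17e-08).

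The other named rises came from several gene groups. The transcription factor STAT5A went from 6.7, 6.42 and 7.17 to 12.3, 11 and 13 CPM (0.84 ± 0.091), and thrombomodulin, THBD, a cell-surface anticoagulant, from 6.24, 7.29 and 5.49 to 11.8, 10.4 and 10.7 (0.79 ± 0.098). The adhesion receptor CELSR3 rose by 0.76 ± 0.092, the epidermal growth factor family ligand EPGN by 0.77 ± 0.12, the membrane protein gene TMEM132B by 1.05 ± 0.14, SECTM1, a secreted and transmembrane protein, by 0.87 ± 0.14, and ADAMTSL4, a matrix protein of microfibrils, by 0.84 ± 0.16. Adjusted p-values of these 7 genes ranged from 4.82e-10 (STAT5A) to 7.23e-05 (ADAMTSL4). The high-dose libraries of each lay above the low-dose libraries, which the rule for naming the largest changes required. The noncoding transcripts LUCAT1 and ALDH1A3-AS1 rose by 0.85 ± 0.1 and 0.76 ± 0.076. Both are annotated antisense to other genes and no source used here gives the strand setting of the counting, so reads of the partner genes may be included.

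BMP signalling genes and the ID genes fell. Of 19 members tested 14 were lower and 2 higher at the high dose, against 13.5% of all genes called lower, with a median log2 difference of -0.49. Without the third library 12 were lower, none was higher and the median was -0.51, against 9.66% of all genes called lower. Of the low-dose libraries, leaving out the first left 13 lower and none higher, the second 14 and 1 and the third 13 and 1. ID1, at 295, 298 and 301 CPM at the low dose, stood at 259, 266 and 302 at the medium and 192, 209.6 and 191 at the high dose. ID2 went from 31.9, 33.7 and 34.3 through 28.9, 28.8 and 27.8 to 14.9, 16.1 and 16.8, ID3 from 235, 278 and 238 through 222, 212 and 224 to 144, 140.3 and 139.8, and ID4 from 5.73, 5.54 and 5.91 through 4.54, 4.53 and 3.82 to 2.14, 2.37 and 2.24. In all 4 genes the 3 high-dose libraries lay below every low- and medium-dose library. The log2 differences between high and low were -0.59 ± 0.075 for ID1, -1.07 ± 0.07 for ID2, -0.82 ± 0.06 for ID3 and -1.35 ± 0.13 for ID4 (adjusted p = 2.88e-08, 5.49e-17, 2.05e-15 and 4.49e-11). None of the 4 was called between the medium and the low dose, where they differed by -0.11, -0.23, -0.19 and -0.42, but ID3 was called there without the filter on low counts (adjusted p = 0.0045) and ID2 with the replicate number as a block (adjusted p = 0.0448).

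The feedback inhibitor SMAD6 went from 16.2, 16.5 and 17 to 9.52, 9.73 and 9.44 CPM (-0.79 ± 0.068, adjusted p = 5e-13), and the BMP-activated transducer SMAD9 from 5.87, 5.54 and 5.3 to 3.63, 3.86 and 3.5 (-0.61 ± 0.11, adjusted p = 4.4e-05). Both were separate from the low dose. Of the other transducers, SMAD1 differed by 0.23 ± 0.077 (adjusted p = 0.0229; 0.13 and adjusted p = 0.311 without the third high-dose library, 0.0883 without the first and 0.0588 without the third low-dose library) and SMAD5 by -0.037 ± 0.052 (adjusted p = 0.666). Among the ligands, BMP4 went from 10.1, 10.4 and 8.28 to 6.11, 7.45 and 7.12 CPM (-0.48 ± 0.091, adjusted p = 5.95e-05). The secreted BMP antagonist GREM1 was higher by 0.19 ± 0.068 (adjusted p = 0.0365), a call lost without the third high-dose or the first or second low-dose library (adjusted p = 0.228, 0.146 and 0.0924). The receptor BMPR2 differed by -0.15 ± 0.04 (adjusted p = 0.00383). The BMP-responsive homeobox factor DLX3 went from 7.16, 7.59 and 6.66 to 3.67, 2.37 and 3.58 CPM (-1.14 ± 0.14, adjusted p = 5.34e-09). ATOH8, a helix-loop-helix factor that BMPs are known to induce and that is not in the list, went from 36.6, 33.6 and 34.4 to 18.8, 18.8 and 18 CPM (-0.91 ± 0.063, adjusted p = 4.75e-16).

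Targets of TGF-beta and of the coactivator YAP were also lower, as were genes of the cytoskeleton. Of 18 TGF-beta targets 12 fell and none rose, with or without the third library, against 13.5% and 9.66% of all genes called lower (median -0.22). Tropomyosin 1, TPM1, went from 637, 649.5 and 609.5 to 386, 406 and 395 CPM (-0.68 ± 0.032), smooth muscle actin, ACTA2, from 71.3, 78.2 and 77.3 to 49, 44.4 and 55.2 (-0.61 ± 0.064), and SKIL, a feedback repressor of SMADs, from 95.1, 95 and 91.6 to 75, 79.5 and 66 (-0.35 ± 0.052). Adjusted p-values of these 3 were 4.99e-22, 2.28e-10 and 6.01e-07, and in each the groups were separate. In a separate list of the ligands, receptors and SMADs of the pathway, 2 of 16 rose and 5 fell, against 11.7% and 13.5% of all genes. The rises lay near the share of all genes. The counts were 2 and 4 without the third high-dose and 2 and 3 without the first low-dose library. Among the falls the inhibitory SMAD7, a feedback gene, went from 19.9, 23.3 and 25.2 to 16.6, 15 and 15.3 CPM (-0.54 ± 0.066, adjusted p = 1.34e-08). FN1, fibronectin, was not called (0.059 ± 0.04, adjusted p = 0.297).

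Of 20 YAP targets 11 fell and none rose (9 fell without the third library, 11 fell and 1 rose without the second), against 13.5% of all genes called lower (9.66% without the third), with a median of -0.13. ANKRD1, a nuclear ankyrin-repeat protein, had the largest fall of the list, from 10.3, 11.8 and 8.7 CPM through 7.8, 7.08 and 7.92 to 2.98, 3.86 and 3.85 (-1.53 ± 0.14, adjusted p = 4.97e-12). The matricellular protein CCN2 went from 70.03, 78 and 73.5 to 48.4, 55.9 and 47.1 CPM (-0.55 ± 0.062, adjusted p = 1.17e-09), and CCN1 from 197, 205 and 190.2 to 153, 159 and 152 (-0.35 ± 0.054, adjusted p = 1.6e-06). YAP1 itself was called with all libraries (-0.15 ± 0.052, adjusted p = 0.0266) but its call was lost when any 1 of 5 libraries was left out, and the difference was -0.072 without the third high-dose library (adjusted p = 0.369), -0.15 without the first (adjusted p = 0.0589) and -0.24 without the second. Without the first, the second or the third low-dose library its adjusted p was 0.066, 0.0513 and 0.0615. In the cytoskeleton list 11 of 23 genes fell and none rose (12 fell without the third library), against the same shares, among them the actins ACTB (-0.28 ± 0.044) and ACTG1 (-0.44 ± 0.037, adjusted p = 3.53e-06 and 1.84e-13). Of 16 collagens 8 fell and none rose (7 fell without the third library, 8 fell and 1 rose without the second), with COL11A1 the furthest at -0.59 ± 0.052 (adjusted p = 1.69e-12).

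Of 7 keratins tested, intermediate filaments typical of epithelia, 4 fell. KRT7, at 593, 652 and 604 CPM at the low dose, stood at 319, 319 and 294 at the high dose. KRT81 went from 123, 137 and 119 to 68.3, 70.5 and 65 CPM, KRT18 from 185, 207 and 191 to 116, 111 and 119 and KRT80 from 45.9, 50.1 and 48.1 to 29, 29.8 and 33.5. In all 4 the groups were separate, with log2 differences of -0.99 ± 0.062, -0.90 ± 0.08, -0.76 ± 0.044 and -0.64 ± 0.057 (adjusted p = 1.34e-17, 1.86e-12, 1.47e-18 and 1.48e-12). In the whole list of intermediate filaments 7 of 12 fell and none rose, with or without the third library, against 13.5% and 9.66% of all genes called lower, and the median was -0.43. The neurofilament light chain NEFL went from 6.15, 5.54 and 5.03 to 2.64, 2.54 and 2.87 CPM (-1.05 ± 0.12), and VIM and the nuclear lamin LMNA were also called lower (log2 differences -0.18 and -0.21). KRT8, the usual pairing partner of KRT18, was not called (-0.17 ± 0.07, adjusted p = 0.0746; with the replicate number as a block, 0.0499), nor were KRT19 (-0.91 ± 0.38, adjusted p = 0.075) and KRT14 (-0.003 ± 0.26, adjusted p = 0.997), both under 1 CPM at the low dose. The antisense transcript KRT7-AS went from 8.55, 8.16 and 9.26 to 4.43, 4.51 and 4.99 CPM, and reads of KRT7 may be counted in it.

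The remaining named falls were led by LGR6, a receptor for R-spondins that strengthens WNT signals, from 5.87, 4.97 and 5.3 to 1.49, 2.37 and 1.73 CPM (-1.54 ± 0.15, adjusted p = 1.97e-11). UCA1, a long noncoding RNA, went from 6.79, 7.38 and 8 CPM through 5.32, 4.82 and 5.74 to 2.45, 3.11 and 2.71 (-1.43 ± 0.12, adjusted p = 1.47e-13), and the transcriptional regulator SAMD11 from 131, 131 and 127 to 62.7, 57.1 and 63 (-1.09 ± 0.049, adjusted p = 5.44e-23). The groups of each were separate, which the rule for naming the largest changes required. The oxytocin receptor OXTR went from 19.7, 17.8 and 18.3 to 9.59, 9.47 and 9.71 CPM (-0.95 ± 0.067), and FAM13B, a protein with a GTPase-activating domain, from 73, 72.4 and 74.2 to 39.4, 40.8 and 38.1 (-0.89 ± 0.036; adjusted p = 5.85e-16 and 6.82e-25). LFNG, a glycosyltransferase that modifies Notch, differed by -0.92 on the log2 scale, the synaptotagmin family genes SYTL3 and SYT12 by -1.05 and -0.86, and the coiled-coil gene CCDC85A by -0.98, all called. HSPD1P11, a processed pseudogene of the chaperonin HSPD1, was called lower (-0.94), and its reads cannot be separated with certainty from those of HSPD1 (-0.26 ± 0.036, adjusted p = 2.21e-07).

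Selenoproteins, which carry selenocysteine and include antioxidant enzymes, did not share 1 direction. Of 17 tested, 6 fell (5 without the third library), against 13.5% of all genes called lower, and 2 rose, a share near the 11.7% of all genes called higher. The median was 0.015 (-0.024 without the third library). SELENOW, a small redox protein whose transcript is known to depend on selenium supply, went from 63.3, 63.7 and 64.6 CPM through 48, 44.9 and 46.7 to 36.9, 37.2 and 33.5. It was lower at each dose step without overlap, by -0.83 ± 0.05 between high and low and by -0.46 ± 0.049 between medium and low (adjusted p = 2.54e-18 and 1.73e-08). Glutathione peroxidase 1, GPX1, went from 192, 191 and 182 to 140.4, 138 and 150.4 CPM (-0.40 ± 0.051, adjusted p = 3.85e-08) and SELENOH, a nuclear redox protein, from 31.7, 33 and 31.5 to 24.6, 25.3 and 16.6 (-0.54 ± 0.095, adjusted p = 2.15e-05). GPX4, which protects membranes from lipid peroxides, was not called (0.093 ± 0.055, adjusted p = 0.224) except without the second high-dose library (0.155, adjusted p = 0.0405), and the rises were in TXNRD1, given above, and in SELENOM at a low level.

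Heat shock genes were lower on balance: 9 of 16 fell and 2 rose (10 and 1 without the third high-dose, 8 and 1 without the first low-dose library), against 13.5% and 11.7% of all genes, with a median of -0.18. The co-chaperone DNAJA1 went from 282, 263 and 255 to 215, 214 and 180.5 CPM (-0.39 ± 0.048, adjusted p = 8.38e-09) and HSPH1, a nucleotide exchange factor, from 139, 129.9 and 128 to 108, 111 and 108 (-0.28 ± 0.035, adjusted p = 2.13e-08). The stress-inducible HSPA1A was not called (-0.006 ± 0.048, adjusted p = 0.95). Among 32 hypoxia and glycolysis genes 7 rose and 11 fell (6 and 9 without the third library), against 11.7% and 13.5% of all genes. The angiogenic factor VEGFA went from 317, 324 and 327 CPM through 364, 371 and 385 to 455, 456 and 459 (0.50 ± 0.031, adjusted p = 8.34e-18). The glycolytic enzymes LDHA and PGK1 were called lower (-0.21 and -0.25, adjusted p = 2.74e-08 and 1.81e-06).

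Counts of several housekeeping lists depended on the third high-dose library; they stand against 13.5% of all genes called lower with it and 9.66% without it. Of 27 proteasome subunits 19 fell and none rose with all libraries, and 10 fell without it, while the median went from -0.18 to -0.11. PSMA7, a subunit of the core particle, had 216, 216 and 210.1 CPM at the low and 186, 188 and 133 at the high dose (-0.34 ± 0.085, adjusted p = 0.00193), and -0.20 without the third library (adjusted p = 0.0755). PSMA4 was alike in all 3 high-dose libraries, at 119.5, 121 and 119 CPM against 143, 134 and 132 (-0.18 ± 0.039; -0.18 without the third). For 30 cytosolic ribosomal proteins the count went from 15 lower to 3 and the median from -0.13 to -0.072. Without the second low-dose library 7 of these were lower. For 29 nuclear genes of oxidative phosphorylation the count went from 11 to 5 (17 without the second high-dose library) and the median from -0.15 to -0.053. For 27 DNA replication genes it went from 9 to 4, and none of these genes rose (1 rose without the second high-dose library). None of the 13 mitochondrially encoded mRNAs was called in either case, with medians of 0.15 and -0.062, whereas 3 were called higher without the first high-dose library, 4 without the second and 1 without the third low-dose library. Of 28 mitosis genes 3 fell and none rose, with a median of -0.038, and 5 fell without the third library. The 3 of 28 lie below the 13.5% of all genes, while the 5 of 28 lie above the 9.66% without that library. Without the second high-dose library 6 fell and 1 rose. Of 14 nuclear and small RNAs used as signs of RNA quality, 4 were lower and 1 higher with all libraries, and none was lower without the third. Leaving out another library gave 2 to 5 lower and none to 2 higher. The part of the third library's mitochondrial share in these lists was not tested.

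**Figure D3:**
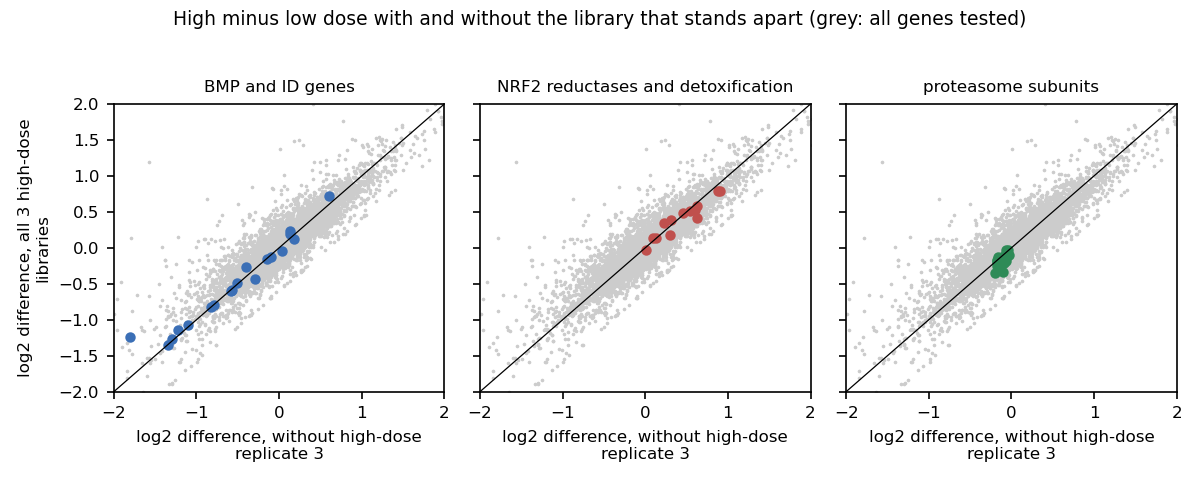
Log2 difference between high and low dose with all 3 high-dose libraries (y axis) against the same without the third (x axis), for all 17189 genes tested in both (grey, 89 of them beyond the axes) and for 3 gene lists (coloured). BMP and ID genes and NRF2 reductases lie on both sides of the line of equal values. Some lie well off it: NOG is at -1.24 with and -1.80 without the third library, and AKR1C3 at 0.41 and 0.63. Proteasome subunits lie mostly below the line.

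At the medium dose few genes were called. Between the medium and the low dose 18 genes were called (0.105% of 17190; 12 up, 0.0698%, and 6 down, 0.0349%), against 1333 at an unadjusted p under 0.05. They include TXNIP, CYP1B1, TIPARP, AHRR, HMOX1, ANGPTL4, VEGFA and the stress-responsive NDRG1 among the rises, and UCA1, KRT18 and SELENOW among the falls. The genes called higher between high and low had a median difference of 0.069 between medium and low, and those called lower one of -0.053. Between the high and the medium dose 2872 genes were called (16.7%; 1289 up, 7.5%, and 1583 down, 9.21%), and 1739 without the third high-dose library. These comparisons share libraries with the comparison of high and low and are not independent of it. HK2, the glycolytic enzyme hexokinase 2, was called higher at the medium dose (62.8, 65.2 and 65.1 CPM against 58.1, 57.7 and 54.6, 0.18 ± 0.04, adjusted p = 0.0469) and stood at 57.5, 60 and 54 at the high dose (0.009 ± 0.041, adjusted p = 0.909). Leaving out 1 medium- or low-dose library left 7 (without the first low-dose library) to 12 calls: 10 and 9 without the second or the third medium-dose library and 10 and 11 without the second or the third low-dose library. CYP1B1, TIPARP, VEGFA and SELENOW were called in each of these 6 cases. HK2, AHRR and UCA1 lost their calls in all 6 (adjusted p = 0.073 to 0.234, 0.114 to 0.25 and 0.0501 to 0.298), and KRT18 in all but the omission of the first low-dose library (adjusted p = 0.0688 to 0.328). TXNIP lost it without the second or the third medium- or the first or the second low-dose library (adjusted p = 0.143, 0.0768, 0.117 and 0.0766), and ANGPTL4 without the second or the third medium- or the first or the third low-dose library (adjusted p = 0.0655, 0.224, 0.281 and 0.0688). HMOX1 lost it without the first or the third medium- or the first low-dose library (adjusted p = 0.0854, 0.0768 and 0.134), and NDRG1 without the first low-dose library (adjusted p = 0.0529).

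The dose effect was then set against that of Citri Unshius Pericarpium, the other extract of the same code set, with a test of the difference between the 2 dose effects. It was called for 1913 genes (11.1%; 960 higher, 5.58%, and 953 lower, 5.54%, in Cimicifugae Rhizoma), and 1230 of these were among the 4317. The count rested on single libraries: it was 716 without the third high-dose library of Cimicifugae, 3009 without the second, 1162 without the first low-dose library of Cimicifugae and 711 without the third low-dose library of Citri. Of the BMP and ID genes 9 of 19 were lower than in Citri and none higher, against 5.54% of all genes, and 10 were lower without the third high-dose library and 9 without the third low-dose library of Citri. Between the doses of Citri itself 2 of them rose and 1 fell, against 8.19% and 10% of all genes in that extract (18.2% in either direction). ID2 was at 33.3 ± 1.23 CPM (SD, n = 3) at the low and 15.9 ± 0.935 at the high dose of Cimicifugae, and at 31.6 ± 3.39 and 34.3 ± 0.426 in Citri, a difference of -1.18 ± 0.095 on the log2 scale (adjusted p = 2.98e-13). ID3 differed by -1.19 ± 0.083 and SMAD9 by -1.11 ± 0.15 (adjusted p = 3.51e-15 and 1.24e-06). TXNIP went the same way in both extracts but less far in Cimicifugae: Citri went from 9.99 ± 0.944 to 181 ± 16.3 CPM, and the difference was -1.83 ± 0.11 (adjusted p = 7.47e-18). ARRDC4 differed likewise (-1.20 ± 0.13, adjusted p = 3.05e-09). Between the doses of Citri 9 of 18 TGF-beta targets and 14 of 23 cytoskeleton genes also fell, against 10% of all genes in that extract. So did 4 of 20 YAP targets and 7 of 16 collagens, and no gene of these lists rose there.

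ANGPTL4 rose further than in Citri, by 1.07 ± 0.095 (adjusted p = 7.44e-12), as did HMOX1 (0.47 ± 0.065, adjusted p = 1.23e-06) and SLC48A1 (0.59 ± 0.085, adjusted p = 3.47e-06). KRT7 fell further (-0.71 ± 0.087, adjusted p = 1.07e-07), and SELENOW and UCA1, which were not called between the doses of Citri (0.042 and -0.023), fell in Cimicifugae, with differences of -0.88 ± 0.069 and -1.41 ± 0.15 (adjusted p = 2.07e-13 and 5.58e-09). CYP1B1 differed by 0.22 ± 0.048 (adjusted p = 0.00182; 0.0762 with only the groups compared in the fit), and CYP1A1 was not called as different (0.082 ± 0.38, adjusted p = 0.927). Of 28 mitosis genes 17 rose between the doses of Citri, against 8.19% of all genes in that extract. In the Cimicifugae dose effect 14 were lower than in that of Citri (10 without the third high-dose library), against 5.54% of all genes with all libraries. These mitosis counts all include the third low-dose library of Citri, with its high mitochondrial share. Among the genes with the largest differences from Citri, ACTC1, cardiac actin, went from 1.31 ± 0.343 to 0.245 ± 0.118 CPM in Cimicifugae and from 1.57 ± 0.0909 to 2.67 ± 0.553 in Citri (difference -3.18 ± 0.3, adjusted p = 7.82e-11), and DUSP2, a phosphatase of MAP kinases, from 1.3 ± 0.139 to 0.37 ± 0.176 and from 1.29 ± 0.436 to 2.86 ± 0.71 (-2.91 ± 0.4, adjusted p = 1.54e-06).

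**Figure D4:**
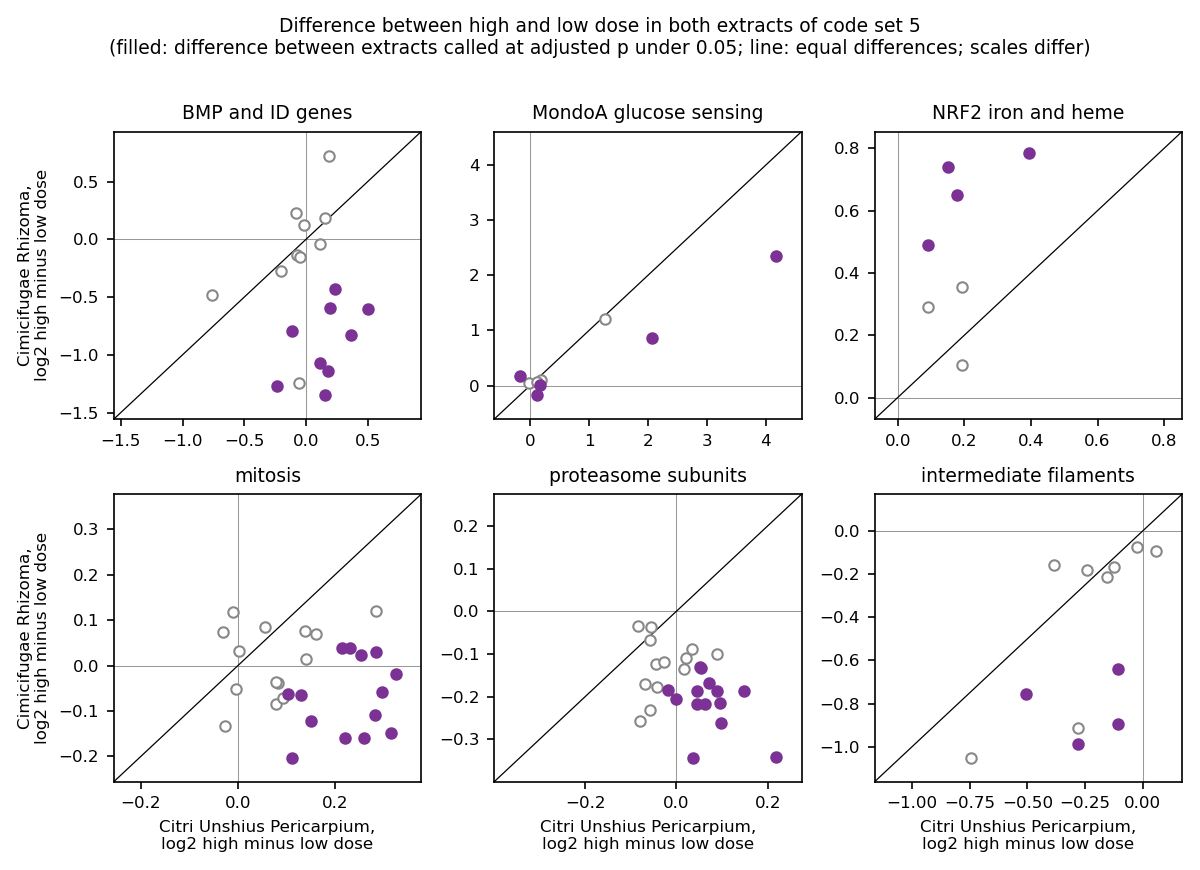
Log2 difference between high and low dose in Cimicifugae Rhizoma (y axis) against Citri Unshius Pericarpium (x axis) for the members of 6 gene lists, each panel with its own scale. Filled points were called as different between the extracts and the line marks equal differences; 9 of 19 BMP and ID genes are filled, all below the line, and TXNIP is the point furthest to the right in the MondoA panel.

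Set against the mean dose effect of the other 5 extracts with 3 libraries a dose, 3407 genes differed (19.8%; 1543 higher, 8.98%, and 1864 lower, 10.8%), and 2224 without the third high-dose library. CYP1B1 was above that mean by 0.70 ± 0.037 (adjusted p = 9.43e-20), ANGPTL4 by 0.88 ± 0.071 (adjusted p = 2.47e-13) and TXNIP by 0.47 ± 0.087 (adjusted p = 6.99e-05). HMOX1 was below it (-0.43 ± 0.049, adjusted p = 4.34e-09), as were ANKRD1 (-1.43 ± 0.15, adjusted p = 6.07e-10) and ID4 (-0.81 ± 0.15, adjusted p = 6e-05). The other extracts belong to 3 code sets, and the dose effect was formed within each. The mean gives each extract equal weight. Among them, Aconiti Lateralis Radix Preparata had 9934 genes called between its high and low dose, and the others had 752 to 3725. A difference from the mean therefore need not hold against each single extract.

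Markers of several other cell types were partly under the filter on low counts. Of 8 microglia and leukocyte markers 5 did not pass it, including AIF1 and CX3CR1, and of 7 endothelial and 8 oligodendrocyte markers 4 each did not, among them CDH5, VWF, MOG and SOX10. PTPRC, the leukocyte antigen CD45, was present at 14.1, 12.6 and 14.6 CPM at the low and 8.68, 9.51 and 8.49 at the high dose (-0.63 ± 0.086, adjusted p = 1.29e-07), while CD68, a lysosomal protein used as a macrophage marker, went from 140.4, 151 and 150.1 to 174, 168 and 226 (0.36 ± 0.071, adjusted p = 0.000101; 0.22 without the third library, the highest). Of 8 epithelial markers 4 did not pass, EPCAM and CDH1 among them. Of the 4 that passed, KRT18 fell, the tight junction protein CLDN4 rose (0.62 ± 0.16, adjusted p = 0.00242; 0.58 without the third library), and KRT8 and KRT14 were not called. All 10 fibroblast and mural markers passed, with 4 lower and none higher, and of 5 neuron markers that passed 4 fell, with SYT1 at -0.42 ± 0.057 (adjusted p = 1.38e-07). Both counts were the same without the third library, and stand against 13.5% of all genes called lower (9.66% without it). What part other cells had in these values was not tested.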

How the data were processed

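Libraries were made with a directional kit and sequenced as 100 base pairs on both ends, per the labels' protocols. The table that the authors deposited holds RSEM expected counts (60 libraries, 60675 genes), of which 9.22% were fractional. Trimming with Trim Galore 0.6.5, alignment with STAR 2.7.3a, counting with RSEM 1.3.3 and the human build hg38 are named in the submitters' processing notes. No source used here gives the strand setting of the counting.

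The expected counts were rounded and fitted with edgeR 4.0.16 in R 4.3.3: 57 libraries in 19 groups of 3 (3 libraries of groups of 1 left out), filterByExpr by group, TMM scaling and the quasi-likelihood test, with p-values adjusted over all genes tested. Totals ranged from 18863863 to 36410888 counts. DESeq2 1.42.0, other filters, scalings and sample sets and leaving out each library were tried. Symbols matched 41209 gene IDs. Positions come from GENCODE 29 and promoters from RefSeq on GRCh38.p14. The fit was tested on simulated counts with 200 changed genes. The rule for single genes took the 20 largest rises and 20 largest falls among genes called in the same direction with and without the third high-dose library, with at least 5 CPM in the higher group and no overlap between groups, any member of the gene lists, and among the 10 largest called differences from Citri in each direction. A few genes that this rule takes are not reported here. Members and gene lists were chosen with earlier results of these data known.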

Additional observations from a re-analysis of the deposited data

Results flagged for a closer look

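The following differences between the dose effect of Cimicifugae Rhizoma and that of other extracts passed the test of the difference itself (edgeR's quasi-likelihood test, Benjamini-Hochberg adjusted). Against Citri Unshius Pericarpium they number 1913 genes. On the log2 scale the dose effect of Cimicifugae minus that of Citri was -3.18 for ACTC1, -2.91 for DUSP2, -1.83 for TXNIP, -1.41 for UCA1, -1.20 for ARRDC4, -1.19 for ID3, -1.18 for ID2, -1.11 for SMAD9, -0.88 for SELENOW and -0.71 for KRT7. It was 1.07 for ANGPTL4, 0.59 for SLC48A1, 0.47 for HMOX1 and 0.22 for CYP1B1, whose call was lost with only the groups compared in the fit (adjusted p = 0.0762). ACTC1 and DUSP2 had means under 3 CPM at both doses of both extracts, so their folds rest on few counts.

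Against the mean dose effect of the other 5 extracts, 3407 genes differed. Among the genes named, the dose effect of Cimicifugae minus that mean was 0.88 for ANGPTL4, 0.70 for CYP1B1 and 0.47 for TXNIP, and -1.43 for ANKRD1, -0.81 for ID4 and -0.43 for HMOX1. The dose effect of TXNIP was below that of Citri and above the mean of the 5, and that of HMOX1 the reverse.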

How the results depend on the processing

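Of the 128 named genes called between high and low, 112 were called with the same sign under every alternative that gave a value. With only the groups compared in the fit, 1567 genes were called between high and low, 31 between medium and low, 425 between high and medium and 128 as different from Citri. Calls of 19 of 176 named results were lost there, among them VIM, SOX9, GJA1, PPARG, BMPR2, PFKFB3 and the difference of CYP1B1 from Citri. With the 18 libraries of the code set the last 3 counts were 5, 1765 and 496. Between medium and low, 126 genes were called without the filter and 46 with DESeq2's Wald test. Leaving out 1 library gave, in the same order of comparisons, 3120 to 4614, 7 to 12, 1739 to 3352, 711 to 3009 and, against the other 5 extracts, 2224 to 3824 calls. Without the third high-dose library of Cimicifugae and the third low-dose library of Citri together, an alternative chosen after seeing the data, 428 genes differed from Citri.

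Between the high- and low-dose libraries of Cimicifugae the replicate numbers gave no sign of pairing (correlations of same-numbered deviations 0.021, -0.016 and 0.036, and not every library correlated best with its own number). Pairing among the other groups was not checked in this way. With the replicate number as a block, 4693 genes were called between high and low, 40 between medium and low, 3285 between high and medium, 2602 as different from Citri and 3829 as different from the other 5. Each of these counts was higher than without the block.

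Some differences that were not called changed sign as single libraries were left out. Between high and low, HSPA1A ranged from -0.066 to 0.045, HK2 from -0.027 to 0.047, CD44 from -0.072 to 0.001, ARNT from -0.007 to 0.11, FN1 from -0.011 to 0.095, KEAP1 from -0.072 to 0.087, SMAD5 from -0.077 to 0.033, KRT14 from -0.092 to 0.041 and TXN from -0.148 to 0.075. KRT14 was also at 0 without the filter and with only the groups compared, 0.001 with the block and 0.002 with the libraries of the code set. The difference of CYP1A1 from Citri ranged from -0.118 to 0.261 and was -0.010 in the alternative chosen after seeing the data.

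Genes under about 1 CPM, CYP1A1 among them, rest on few counts a library, and a missing call there does not show equal levels.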

Other observations

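Genes of the WNT pathway have not been described above except for LGR6. Of 16 receptors, ligands and feedback genes tested, 9 fell and none rose (8 without the third high-dose library), against 13.5% of all genes called lower (9.66% without it), with a median log2 difference of -0.17 against 0.003 over all genes. Between the doses of Citri 10 of the 16 fell and none rose, against 10% of all genes called lower in that extract. The secreted antagonist DKK1 went from 292, 282 and 292 to 207, 210.5 and 195 CPM (-0.50 ± 0.047, adjusted p = 9.35e-12), and the ligand WNT5B from 19.9, 21.9 and 21.4 to 17.1, 15.8 and 15.7 (-0.38 ± 0.065, adjusted p = 1.35e-05). Both groups were separate. The feedback scaffold AXIN2 and the transcription factor TCF7 differed by -0.40 ± 0.094 and -0.40 ± 0.068 (adjusted p = 0.00115 and 9.25e-06). Of 6 metallothionein and zinc export genes 2 fell and none rose, with or without the third high-dose library. They were the metal-binding MT1E (-0.54 ± 0.081, adjusted p = 1.13e-06), whose near-identical relatives make its level uncertain, and the zinc exporter SLC30A1, from 97.8, 92 and 95.4 to 68.5, 68.2 and 56.6 CPM (-0.56 ± 0.055, adjusted p = 3.29e-11).

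The counts that follow stand against 11.7% of all genes called higher and 13.5% called lower (8.24% and 9.66% without the third high-dose library). Of 25 immediate early genes and feedback phosphatases 9 rose and none fell (6 and 1 without the third library), with a median of 0.15. DUSP6, the phosphatase that shuts off ERK, went from 19.7, 19.6 and 20.3 to 28.6, 27.3 and 29.8 CPM (0.53 ± 0.056, adjusted p = 4.09e-10), and the transcription factor MYC from 42.9, 42.7 and 43.8 to 52.6, 47.7 and 62.6 (0.33 ± 0.068, adjusted p = 0.00017; 0.22, adjusted p = 0.0166 without the third high-dose library). Both groups were separate. Of 14 genes of FOXO and insulin signalling 5 rose and 1 fell (6 and 1 without the third and 5 and none without the first high-dose library), among the rises the insulin receptor INSR (0.29 ± 0.056, adjusted p = 7.62e-05) and the fall that of FOXO1 itself (-0.26 ± 0.075, adjusted p = 0.00673, and 0.0677 without the first high-dose library). Of 28 interferon-stimulated genes 10 rose and none fell with all libraries, 8 rose without the third high-dose and 5 without the first low-dose library. Of 25 genes of cholesterol synthesis 8 fell and 2 rose. Without the third high-dose library 5 fell and 2 rose, without the first 8 and 1, without the first low-dose library 4 and 2 and without the third 6 and 1, while the pathway's regulator SREBF2 differed by 0.27 ± 0.034 (adjusted p = 2.22e-08). Of 23 p53 targets 6 rose and 2 fell (8 and 1 without the third high-dose library, 6 and 1 without the first or the second low-dose library), with a median of 0.03. The share of falls lay below that over all genes.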
